A study of Drosophila melanogaster with 2 samples.

Results

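Of the 29981 regions that the pooled peak list held on the 6 chromosome arms, 11414 (38.1%) lay below the reproducibility threshold of the study and were still listed in both replicates. The data were chromatin immunoprecipitation with sequencing (ChIP-seq) from white prepupae of Drosophila melanogaster, the stage at which the larva has just stopped moving and metamorphosis begins. The only group, of 2 biological replicates, was whole animals of mixed sex from 1 transgenic line that carries espinas (esn) fused to GFP at its C-terminus. Chromatin was sheared by sonication and precipitated with an antibody against GFP. The promoter that drives the fusion is not given in the labels, and the control libraries were not analysed here, so binding by espinas cannot be told apart from recovery of chromatin that is unrelated to it. How the animals of either replicate were raised or collected is not stated in the labels, and part of what separates the replicates can be technical.

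The regions were chosen by rule, from measured values. A pooled region was kept if it shared no base with any region of the IDR list (IDR, irreproducible discovery rate, is a measure of how far the ranks of a peak in both replicates hold together) and shared at least 1 base with a region in each replicate's own list. The IDR list held 10918 regions on the arms and was exactly the top of the pooled list by signal, so low signal, low rank and presence in both replicates are what the rule set, and they are given only as a description. The kept regions are called sub-threshold regions below. The rest of the pooled list was 4972 regions off the IDR list that a replicate's list lacked, called unshared regions, and 2677 weaker regions that overlapped the IDR list. With 1 group there is no comparison between groups, and regions are not replicates of a condition, so no p-value is given. Shares carry 95% Wilson intervals, differences of shares Newcombe intervals and densities exact Poisson intervals, all of which cover counting error only.

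Espinas is a LIM-domain protein of the Prickle family. Its relative Prickle belongs to the core of the planar polarity system, which orients cells within the plane of an epithelium by way of the receptor Frizzled and its cytoplasmic partner Dishevelled. Most ChIP-seq peaks of transcription-related proteins in flies fall on open chromatin at promoters and enhancers. Peaks under a reproducibility threshold can be weak sites, shoulders of strong sites or noise.

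The following summit windows show the sequences that carried the motif results below. They are of the strongest sub-threshold regions with no annotated untranslated region in the window, 50 bases on each side of the summit (the authors' position of highest signal), on the plus strand of dm6, from the RefSeq sequence of the Release 6 genome. Capitals mark the motif named, on either strand. The TATA box core TATAAA, the A tract AAAAAAA and the Pleiohomeotic core GCCAT were the motifs whose share differed most from the flanks. The TATA box core is shown in an intron of syd (chr3L:7934932-7935032) and 317 bases from the start of CG15249 (chrX:9899852-9899952).
syd intron: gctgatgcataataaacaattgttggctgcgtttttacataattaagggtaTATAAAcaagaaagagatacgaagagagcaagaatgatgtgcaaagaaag
CG15249 promoter: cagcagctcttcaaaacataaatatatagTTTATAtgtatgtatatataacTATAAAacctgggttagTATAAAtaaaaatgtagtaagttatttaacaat
The A tract is shown in introns of disco-r (chrX:16140744-16140844) and rin (chr3R:13647655-13647755).
disco-r intron: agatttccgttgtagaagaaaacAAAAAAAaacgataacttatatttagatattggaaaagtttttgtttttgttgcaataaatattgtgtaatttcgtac
rin intron: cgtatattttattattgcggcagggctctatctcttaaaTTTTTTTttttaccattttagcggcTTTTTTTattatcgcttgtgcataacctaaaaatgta
The Pleiohomeotic core, which was rarer at summits than in flanks, is shown in introns of Jhbp12 (chr3R:24526139-24526239), in the strongest sub-threshold region of all, and elB (chr2L:14399468-14399568).
Jhbp12 intron: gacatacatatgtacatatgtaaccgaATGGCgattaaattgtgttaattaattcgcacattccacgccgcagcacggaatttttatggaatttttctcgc
elB intron: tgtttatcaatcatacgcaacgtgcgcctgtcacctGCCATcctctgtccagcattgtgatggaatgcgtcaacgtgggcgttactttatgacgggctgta
The DNA replication-related element TATCGATA had the largest ratio of summit to flank share, and its windows were added after those values had been seen. It is shown 72 bases from the start of prage (chrX:1773597-1773697) and in an intron of CG3655 (chrX:1107550-1107650).
prage promoter: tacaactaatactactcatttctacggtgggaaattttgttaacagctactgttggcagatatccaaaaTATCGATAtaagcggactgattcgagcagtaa
CG3655 intron: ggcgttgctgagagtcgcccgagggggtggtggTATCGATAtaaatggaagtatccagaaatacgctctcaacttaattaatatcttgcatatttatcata
Windows with none of the 21 motifs searched are shown from introns of ush (chr2L:522056-522156) and chrb (chr3L:11492321-11492421).
ush intron: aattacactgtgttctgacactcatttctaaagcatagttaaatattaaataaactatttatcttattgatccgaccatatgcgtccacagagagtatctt
chrb intron: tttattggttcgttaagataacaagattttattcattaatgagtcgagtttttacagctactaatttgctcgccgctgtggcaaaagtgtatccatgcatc

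The sub-threshold regions formed 8940 runs of overlapping regions and covered 4.85 Mb, or 3.62% of the arms. All but 51 had the same width of 476 bases (99.6%, against 48.6% of IDR regions), so their width carries no measure of extent. Their signal in the pooled list, in the authors' unit with no stated scale, had a lowest value of 42.5, a median of 85.6 and a highest of 164.2. The pooled list was deposited with 30000 regions, as was each replicate's list, so its lower end is set by the length of the list. The 3 regions just inside the threshold had signals of 164.217, 164.130 and 164.127, and the 3 IDR regions just outside it had 164.229, 164.251 and 164.267. The authors' −log10 of the q-value had a median of 1.5, against 2.85 in the IDR list and 0.620 in unshared regions.

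In replicate 1 the signal of the sub-threshold regions ran from 29.9 through a median of 61.0 to 418, and in replicate 2 from 17.1 through 36.9 to 287. The scale is not stated and may differ between lists, so ranks were used to set the replicates side by side. Of the 11414 regions, 703 (6.16%) were among the strongest 10918 of replicate 1, 1015 (8.89%) among those of replicate 2, 59 among both and 9755 among neither. Across the regions, which all share the same pair of libraries, Spearman's rho between the replicates' signals was 0.378, against 0.828 across 10767 IDR regions that have a wider range of signal.

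The strongest regions in both replicates were ranked by the worse of their 2 replicate ranks. The first was intergenic (X, 18924891 to 18925116), with ranks of 2538 and 2179, and lay 226 bases from an IDR region. The second lay in an intron of CG30460 (2R, 17077073 to 17077548). It ranked 4116 in replicate 1 (signal 266) and 3174 in replicate 2 (signal 195), and the replicate summits lay 41 bases apart. In the pooled list it ranked 23820, with a signal of 59.7, and the nearest IDR region was 14329 bases away. Another such region lay 317 bases from the start of CG9967, within eys (2L, 2357435 to 2357910), with ranks of 7659 and 7439 in the replicates, 18366 in the pooled list and 5876 bases to the IDR list. Of the 10 regions with the best ranks, 7 lay within 400 bases of an IDR region, among them 1 at the start of Notch (N; X, 3134597 to 3135072), 257 bases away, with signals of 146 and 92.0 in the replicates and 86.8 in the pooled list. As a description only, since it takes the lists as on 1 scale, the pooled signal was divided by the sum of the replicate signals (median ratio 0.947, quartiles 0.804 and 1.01), and it was under 0.5 of the sum in 740 regions (6.48%), against 4.72% in the IDR list.

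Replicate summits lay farther apart in sub-threshold regions than in IDR regions. The rule asked for 1 shared base only and did not use this distance. IDR regions were often of another width (476 bases in 48.6% of them), so the distance did not have the same room to vary in both lists. The median distance was 72 bases (interval 70 to 75), against 25 (24 to 26) in 10767 IDR regions. Within 100 bases of each other lay 59.6% of the summit pairs, against 90.1%, and 22.0% were over 200 bases apart, against 3.08%. In 5 groups of equal size from the strongest to the weakest sub-threshold regions, the median was 44, 55, 72, 94 and 132 bases, and in 5 such groups of the IDR list it was 14, 22, 28, 31 and 36. The weakest IDR group and the strongest sub-threshold group thus differed by little (36 against 44 bases). By position the median was 80 bases at promoters, 69 in introns, 66.5 in intergenic sequence and 92 in the 237 coding-exon regions.

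**Figure D1:**
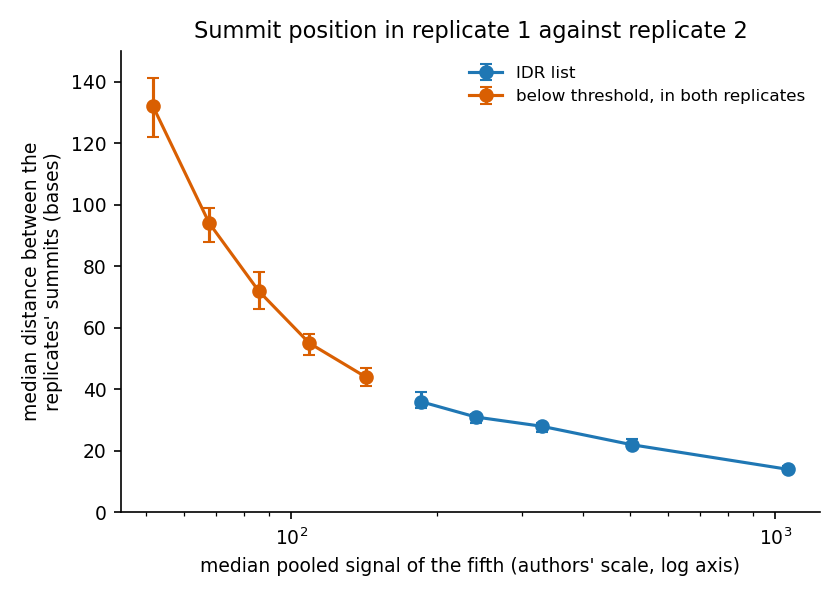
Median distance in bases between the summits of replicate 1 and replicate 2 (vertical axis) against median pooled signal (horizontal axis, log scale) in 5 groups of sub-threshold regions and 5 of the IDR list, with 95% intervals of the median. The distance falls from 132 to 44 bases as the signal of sub-threshold regions rises, and goes on from 36 to 14 bases in the IDR list.

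Of the sub-threshold summits, 2875 (25.2%, interval 24.4 to 26.0) were promoter summits, no more than 500 bases from where a protein-coding transcript starts. This was 16.7 points lower than the 41.9% of the IDR list (difference -16.7, interval -18.0 to -15.5) and above the 11.5% of all bases of the arms. With the replicates' own summits the share was 25.3% in replicate 1 and 25.7% in replicate 2, and the difference from the IDR list was -16.5 and -16.4. Unshared regions had 14.1% (13.1 to 15.1), 11.1 points below the sub-threshold regions (9.86 to 12.4). The 2677 weaker regions that overlapped the IDR list, which the rule left out, had 45.9% (44.0 to 47.8). With those of them in both replicates' lists kept, the difference from the IDR list was -12.8 points. The share held level through the IDR list and then fell. In bins of 3000 ranks it was 41.8%, 41.2%, 42.1% and 42.9% for IDR regions, then 34.1%, 32.6%, 27.2%, 22.2%, 18.6%, 19.8% and 19.6% for sub-threshold regions. Unshared regions had 27.4%, 30.2%, 18.8%, 14.8%, 14.1% and 9.95% in the last 6 of these bins. Their interval overlapped that of the sub-threshold regions in the first 4 of these, with the order the other way in ranks 15001 to 18000 (30.2%, interval 24.2 to 37.0, against 27.2%). It lay below in the last 2, with 9.95% (8.67 to 11.4) against 19.6% (17.1 to 22.3) in the last.

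**Figure D2:**
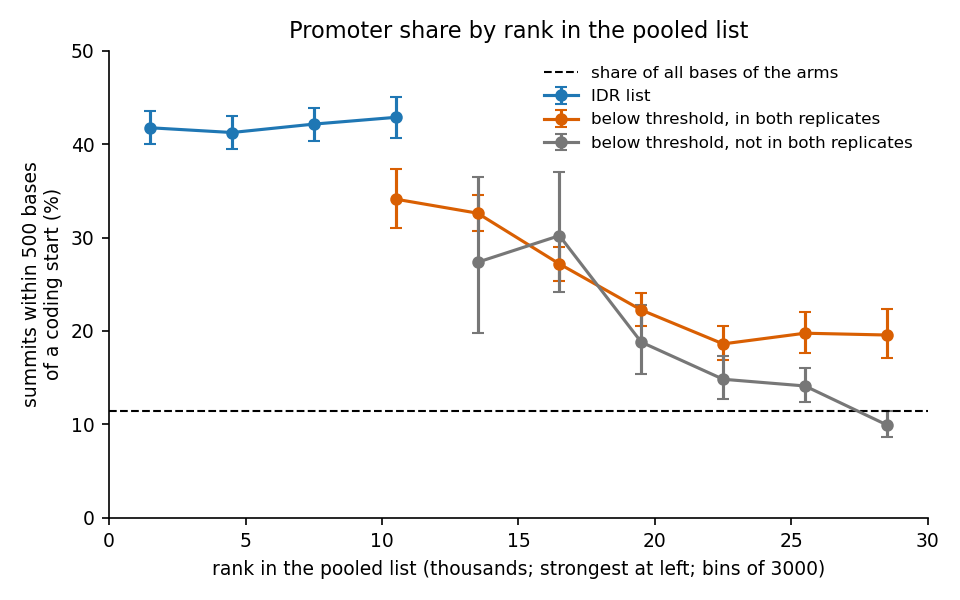
Share of summits within 500 bases of a coding start (vertical axis, percent, 95% Wilson intervals) by rank in the pooled list (horizontal axis, in bins of 3000 ranks) for the IDR list, sub-threshold regions and unshared regions; the dashed line is the 11.5% of all bases. The share stays between 41.2% and 42.9% in the IDR list and falls from 34.1% to 19.6% in sub-threshold regions. Weaker regions that overlap the IDR list are not shown.

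Introns held the largest part of the sub-threshold summits, 5248 (46.0%, interval 45.1 to 46.9), against 37.8% of IDR summits and 39.9% of the bases. Intergenic sequence held 2252 (19.7%), against 16.8% and 27.8%. Among summits away from promoters the order against the IDR list turned: introns held 61.5% (60.4 to 62.5) of 8539 sub-threshold and 65.1% (63.9 to 66.3) of 6341 IDR summits, and intergenic sequence 26.4% (25.4 to 27.3) and 28.9% (27.8 to 29.99). Coding exons and 3′ UTRs kept theirs, with 2.78% against 0.378% and 4.87% against 1.44%. Coding exons held 237 (2.08%, 1.83 to 2.35), against 24 IDR summits (0.220%) and 13.9% of the bases, and 3′ UTRs held 416 (3.64%), against 0.833% and 4.52%. The coding share was 0.263% in the strongest of the 5 groups, close to that of the IDR list, and rose through 1.14%, 1.75% and 3.15% to 4.07% in the weakest. It was 6.537% in unshared regions. The strongest coding-exon regions, named after their values had been seen, lay in Tim17b1 and mtd, which overlap (3R, 5300562 to 5301037, signal 159.4), in Exn (3L, 16981208 to 16981683, signal 159.3) and in sgg, the kinase of the Wingless pathway (X, 2659324 to 2659799, signal 134.1).

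**Figure D3:**
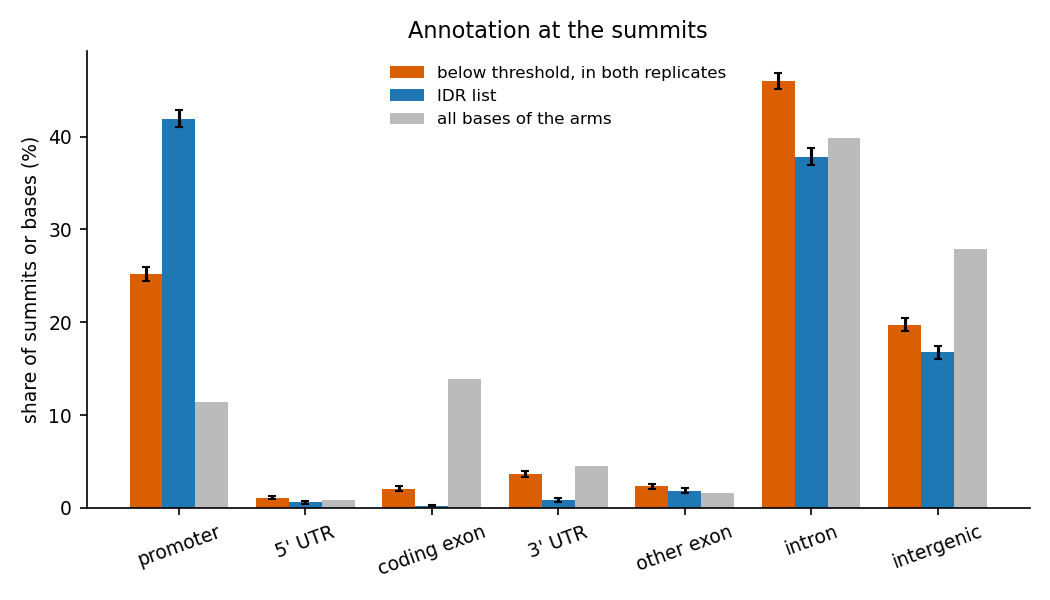
Share of summits in each annotation class (percent) for sub-threshold regions and the IDR list, with 95% Wilson intervals, beside the share of all bases of the arms. Sub-threshold summits lie between the IDR list and the bases at promoters (25.2%) and in coding exons (2.08%), and above both in introns (46.0%), where the share among summits away from promoters is below that of the IDR list (61.5% against 65.1%).

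At promoters the sub-threshold summits lay on both sides of the start. Of 2875, 1622 (56.4%, interval 54.6 to 58.2) were upstream, against 75.6% (74.3 to 76.8) of 4577 IDR promoter summits. The upstream share was 56.0% with the summits of replicate 1 and 58.8% with those of replicate 2, against 76.0% and 75.5% in the IDR list. Both kinds of summit lay at a start in 488 genes. The rule against overlap limits where a sub-threshold summit can lie near an IDR region, and its part in this difference was not tested. The median distance to the start differed little, 113 bases against 104. The strongest promoter region lay 7 bases from the start of Cyp1, a cyclophilin gene (X, 16320125 to 16320600), with a pooled signal of 164.1 and signals of 112 and 56.1 in replicates 1 and 2. The next were at Caf1-180, a chromatin assembly factor subunit (X, 8606106 to 8606581; 126 and 45.0), Mrtf, a myocardin-related transcription cofactor (3L, 2734704 to 2735179; 106 and 49.9), CG15249 (X, 9899664 to 9900139; 58.0 and 108) and Cse1, a nuclear export factor, in sequence shared with mdy (2L, 16824822 to 16825297; 114 and 54.7). All 5 lay at least 1205 bases from the IDR list. Away from promoters the strongest regions were in introns of Jhbp12 (3R, 24525951 to 24526426; pooled signal 164.2), pcs (2R, 14981837 to 14982312; 164.1), CG44838 (3L, 9468184 to 9468659; 164.1) and elB (2L, 14399280 to 14399755; 164.1), and in the 3′ UTR of Calr (3R, 9628588 to 9629063; 164.1).

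Sub-threshold regions lay near IDR regions more often than bases of the arms did. The median distance from summit to the nearest IDR region was 2174 bases, against 9404 for all bases outside the IDR list. Within 1000 bases lay 21.4% (20.7 to 22.2) of the summits and 12.5% of the bases, within 5000 bases 77.5% and 37.5%, and within 10000 bases 91.3% and 51.2%. Under 500 bases the order was the other way (2.97% against 6.91%), a range in which the rule against overlap left regions out. The 996 regions over 10000 bases from any IDR region had a promoter share of 32.2%, above the 24.3% of the 2442 regions within 1000 bases. The rule left out regions that overlapped the IDR list, of which 45.9% were at promoters. The part of the rule in this difference was not tested.

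Chromosome 4 was the arm with the densest sub-threshold regions, though not among the stronger ones, and with the sparsest IDR regions. This small chromosome is largely heterochromatic in composition, with genes embedded among repeats. It held 158 sub-threshold regions, 117 per Mb (99.6 to 137), against 85.3 per Mb over all arms, and 42 IDR regions, 31.2 per Mb (22.5 to 42.1), against 81.6. Its whole pooled list, 292 regions at 217 per Mb, was close to the 224 per Mb of all arms, as were its lists in replicate 1 (230 per Mb) and replicate 2 (216 per Mb). The excess was in the weaker regions. The 5707 stronger sub-threshold regions had 43.8 per Mb on chromosome 4 (33.3 to 56.5), 49.9 on X, 45.9 on 3L and 42.6 on all arms, and the 5707 weaker ones 73.4 (59.7 to 89.4) and 42.6. With runs of overlapping regions counted once, chromosome 4 held 118 of the 8940 runs, 87.5 per Mb. This is a density of runs and cannot be set against the region densities of the other arms. Counted as regions, without merging, the other arms had 97.8 per Mb (X), 91.0 (3L), 85.7 (2L), 79.9 (2R) and 73.5 (3R). On 3R alone of the 6 arms sub-threshold regions were sparser than IDR regions (78.9 per Mb).

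**Figure D4:**
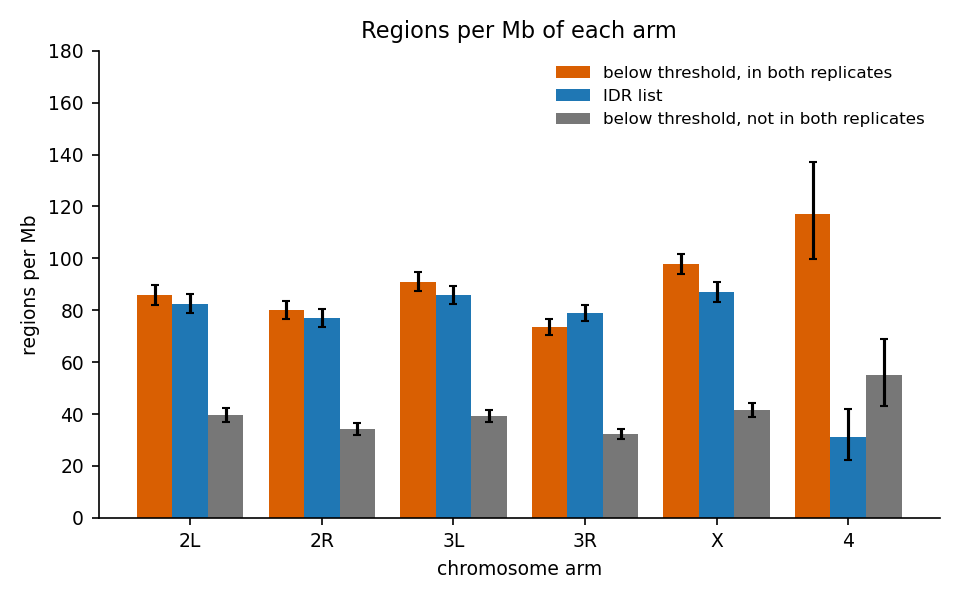
Regions per Mb (vertical axis, exact Poisson 95% intervals) on each chromosome arm (horizontal axis) for sub-threshold, IDR and unshared regions. On chromosome 4 sub-threshold regions stand at 117 per Mb and IDR regions at 31.2, while on the other arms both lie between 73.5 and 97.8.

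Of the 80 protein-coding genes of chromosome 4, 49 had a sub-threshold summit in their body and 34 of these had no IDR summit there. Over all 13945 protein-coding genes, 2750 (19.7%) had one in their body, and 1299 (9.32%) had one and no IDR summit there. Gene length was not taken into account. The transcription factor gene zfh2 held 12 sub-threshold and no IDR summits (strongest signal 128.6). The Wingless pathway transcription factor gene pan held 7 (130.5), the semaphorin receptor gene PlexA 6 (80.8), and ci, the transcription factor of the Hedgehog pathway, 4 (104.4), all with no IDR summit. The strongest regions of this chromosome, named after their values had been seen, were at the starts of Asator, a tau-tubulin kinase gene (488581 to 489056, signal 163.5), and ey, the eye selector gene (697577 to 698052, signal 162.7). At promoters lay 59 of the 158 summits (37.3%, 30.2 to 45.1), against 24 of the 42 IDR summits (57.1%, 42.2 to 70.9) and 8.55% of the bases of this chromosome. The replicate summits were 124.5 bases apart in the median, against 72 over all arms. Annotated transposable elements held 21 of the 158 summits (13.3%, 8.86 to 19.5), against 24.8% of the bases of this chromosome. Over all arms they held 85 (0.745%, 0.603 to 0.920), against 0.256% of IDR summits and 5.93% of the bases.

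Counted by gene, 2353 of 13945 protein-coding genes (16.9% of those tested) had a sub-threshold summit within 500 bases of a start and 4936 (35.4%) an IDR summit. At 1865 genes (13.4%) the only summit at a start was a sub-threshold one, and for 1770 of these both replicates' own summits also lay there. With both lists together 6801 genes (48.8%) had a summit at a start. The gene lists below were read against these shares, with no test, and the intervals of the shorter lists are wide. A gene with an IDR summit at a start cannot count as one with a sub-threshold summit alone. A high IDR share in a list thus limits its share with a sub-threshold summit alone. A region can lie at the starts of neighbouring genes: those of twe, Rab6, Rab23, TyrRS-m, HisRS and Ir76a, named below, also lay at the start of another gene.

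Every one of the 6 core planar polarity genes had a summit at a start in 1 of the lists. Of the 6, stan, Vang, pk and dgo had an IDR summit at a start and no sub-threshold one, while fz and dsh had a sub-threshold one and no IDR summit. At fz, the Frizzled receptor gene (3L, 14273970 to 14274445), the pooled signal was 145.5, and the signal was 60.04 in replicate 1 (rank 17436) and 81.6 in replicate 2 (rank 8903). The summit lay 135 bases from the start, and the replicates placed it 4 bases apart. At dsh, the Dishevelled gene (X, 11355599 to 11356074), the pooled signal was 141.9, with 85.7 in replicate 1 (rank 12970) and 52.7 in replicate 2 (rank 13403), 44 bases from the start and with replicate summits 38 bases apart. The body of fz held 20 sub-threshold and 19 IDR summits, that of stan 6 and 2, and that of pk 5 and 7.

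Among the 9 genes of the Fat and Dachsous branch, which aligns polarity across a tissue, fj was the only one with a sub-threshold region alone at its start. It encodes a Golgi kinase that modifies both cadherins, and its region (2R, 18232564 to 18233039) had a pooled signal of 92.5, with 54.9 in replicate 1 and 26.7 in replicate 2. The casein kinase gene dco had both a sub-threshold (121.8) and an IDR region, and Fbxl7, app, Gug, ft and dachs an IDR region only. The cadherin gene ds and lft had neither, although the body of ds held 6 sub-threshold and 12 IDR summits. Of 9 effector genes, in (3L, 20367015 to 20367490) had a sub-threshold region alone with a pooled signal of 123.8, 68.4 in replicate 1 and 71.3 in replicate 2, where the replicate summits were 277 bases apart. The other was frtz (2L, 1715661 to 1716136), with 72.6, 34.7 and 34.6, both genes that restrict where a wing cell forms its hair. The myosin gene zip had both kinds, nmo, Rho1, Rok, sqh and fy an IDR region only, and mwh neither. The sub-threshold region at zip also lay at the start of uzip. The kinase gene nmo held 19 sub-threshold summits in its body, against 9 of the IDR list.

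The gene of the tagged protein held 7 sub-threshold summits within its body, beside 9 IDR summits. The line was transgenic and depth is unknown, so any added copies of esn sequence cannot be told apart from enrichment at the gene. At a start of a shorter esn transcript lay a region (2R, 7098183 to 7098658) with a pooled signal of 149.2, 105 in replicate 1 and 36.6 in replicate 2. The other 6 were intronic, with pooled signals between 67.9 (7114935 to 7115410) and 156.1 (7112050 to 7112525). Among the other Prickle-family and LIM-domain genes, stck, an integrin adhesion adaptor (94.3), and LIMK1, the LIM kinase (78.4), had a sub-threshold region alone at their start, 2 of 18 in all. Both kinds were present at esn, Zasp52, Lmpt, Pax and Alp12. The region at Alp12 also lay at a start of Pax and of CG13085, and with a signal of 42.6 it ranked 29920 in the pooled list.

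Signalling pathway lists had a higher share of genes with a sub-threshold summit alone than the 13.4% of all genes. In the Hedgehog list it was 7 of 14 (interval 26.8% to 73.2%), with 5 of 14 at an IDR summit and 2 with neither, and for all 7 both replicates' own summits lay at the start. The ligand gene hh had a region (3R, 23141782 to 23142257) with a pooled signal of 147.5, and signals of 93.4 and 50.8 in replicates 1 and 2. The co-receptor genes boi (X, 2447728 to 2448203) and ihog (2L, 6948309 to 6948784) had pooled signals of 151.0 and 150.6, and the region at boi also lay at the start of z. In the Notch list it was 7 of 22 (31.8%, 16.4 to 52.7), led by the ligand gene Ser (160.2), the ubiquitin ligase gene mib1, which acts in ligand uptake (131.5), and the target gene E(spl)mbeta-HLH (129.2). In the Wingless list it was 7 of 24 (29.2%, 14.9 to 49.2), led by fz and dsh as above and by pan (130.5). In the EGF receptor list it was 6 of 20 (14.5% to 51.9%), with the inhibitor gene sty (151.6), the Ras activator gene Sos (126.2) and the ligand gene vn (124.0). In the Dpp list it was 5 of 19 (26.3%, 11.8 to 48.8), with the receptor gene sax (152.6, shared with Nop17l) and the ligand genes gbb (144.4, shared with ytr) and dpp (132.5). In the Hippo list it was 3 of 18, the transcription factor gene sd (149.0), the cofactor gene mats (147.5, shared with Nop56) and the kinase gene wts (104.7, shared with dj-1beta). The lower bounds of the Dpp and Hippo lists (11.8% and 5.84%) were below the share of all genes.

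Of the genes of the ecdysone response, the hormone programme of this stage, 3 of 25 (4.17% to 29.96%) had a sub-threshold summit alone, against 19 with an IDR summit. These were the nuclear receptor gene Hr39 (2L, 21237097 to 21237572; pooled signal 158.6), the ecdysone-induced gene ImpE1 (117.6) and the hormone-response gene Kr-h1 (108.6). Together the 25 genes held 175 sub-threshold summits in their bodies, against 118 IDR summits, and Eip75B alone 35 against 25. Over all genes the bodies also held more sub-threshold than IDR summits, 8318 against 6941. In hormone synthesis and turnover, dib, a biosynthetic cytochrome P450 gene (147.3), and Eo, the ecdysone oxidase gene (144.5), were 2 of 12. Of 22 glue and late puff genes of the salivary gland, Sgs3 had a sub-threshold region (3L, 11511627 to 11512102) at a signal of 60.3, with 38.7 in replicate 1 and 21.7 in replicate 2, and none of the 22 had an IDR summit.

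The growth and housekeeping lists differed from each other. Cytosolic ribosomal protein genes had a sub-threshold summit alone in 6 of 93 (6.45%, 2.99 to 13.4), with 76 of 93 at an IDR summit and 11 with neither. Over all genes 51.2% had neither. The 3 strongest regions alone at a start were those of RpS5b (162.3), RpS3 (162.2) and RpS24 (159.4). Mitochondrial ribosomal protein genes had 10 of 73 (13.7%, 7.61 to 23.4), led by mRpL12 (160.5), and proteasome genes 6 of 48 (12.5%, 5.86 to 24.7), led by Prosbeta7 (154.6). Cell cycle genes had 7 of 28 (12.7% to 43.4%), with the retinoblastoma gene Rbf (157.6), CycA (156.5) and the meiotic phosphatase gene twe (135.5). Rab GTPase genes, which direct vesicle traffic, had 7 of 36 (19.4%), with Rab6 (154.1), Rab19 (145.8) and Rab23 (141.5), and aminoacyl-tRNA synthetase genes 2 of 32, TyrRS-m (94.4) and HisRS (76.6). Heat shock genes had 2 of 19, Hsp67Bc (116.6, shared with Hsp22 and CG4456) and Hsf, the heat shock transcription factor gene (90.6).

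Among genes of chromatin and patterning, Polycomb and trithorax group genes had 6 of 22 (27.3%, 13.2 to 48.2), led by the Brahma complex genes osa (154.8) and mor (151.4, shared with Hel89B) and the histone methyltransferase gene ash1 (131.8, shared with Taf6). Insulator and promoter factor genes had 4 of 17, among them Ibf1 and Ibf2, neighbours that share 1 region (137.4), and ZIPIC (117.0). Hox genes had 2 of 8, lab (130.8) and abd-A (72.4), with 1 of 8 at an IDR summit. Axon guidance genes had 6 of 28, with Sema2a (153.7), PlexB (144.7) and sli (142.9), and together held 137 sub-threshold and 110 IDR summits in their bodies, beside 8318 and 6941 over all genes. In the glial list it was 1 of 12, nrv2 (102.8).

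Lists of genes for differentiated functions had few. Neither the 19 neuronal nor the 19 muscle structure genes had a sub-threshold summit alone at a start, for which the interval reaches up to 16.8%. Cuticle protein genes had 2 of 121 (1.65%, 0.454 to 5.83), Cpr51A (59.5) and Edg91 (56.0), both with signals in the weakest of the 5 groups. Chemoreceptor genes had 6 of 179 (3.35%, 1.55 to 7.12), led by Ir60a (134.9), Ir85a (132.4) and Ir76a (92.3), against 4 of 179 with an IDR summit.

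Among non-coding genes, tRNA genes had the highest share. A sub-threshold summit lay within 500 bases of 89 of 290 (30.7%, 25.7 to 36.2), against 45 (15.5%, 11.8 to 20.1) for IDR summits. None of the 89 had both, against 488 of 13945 protein-coding genes (3.50%) that did. The rule against overlap limits how often both kinds can lie near 1 short gene, so this count is a description only. The tRNA genes lie in clusters, so these 89 rested on 76 regions. Among the 211 tRNA genes over 1000 bases from any protein-coding start, 65 (30.8%, 24.97 to 37.3) had a sub-threshold summit and 26 (12.3%, 8.55 to 17.4) an IDR summit. The strongest region served tRNA:Met-CAT-1-1 and tRNA:Arg-TCT-1-1 (2R, 11652357 to 11652832; pooled signal 159.2, 94.7 in replicate 1 and 75.8 in replicate 2), and the next tRNA:Thr-AGT-1-4 (3R, 16431619 to 16432094; 153.0, 109 and 65.7). Of 260 miRNA genes 33 (12.7%) had a sub-threshold summit and 16 (6.15%) an IDR summit, led by mir-954 on chromosome 4 (158.6), mir-276a (157.9) and mir-982 (155.4). For snoRNA genes both counts were 27 of 269, led by snoRNA:Me18S-A28a (158.3). Over 1000 bases from any protein-coding start they were 19 and 9 of 184 (10.3%, 6.71 to 15.6, against 4.89%, 2.59 to 9.03). For snRNA genes they were 3 and 9 of 32, with sub-threshold regions at snRNA:U7 (154.8), snRNA:U11 (103.7) and snRNA:U12 (93.4). For other ncRNA genes they were 379 and 412 of 3001, led by lncRNA:CR44016 (163.3), lncRNA:CR44754 (163.1) and lncRNA:CR44628 (162.6), and for pseudogenes 13 and 16 of 268, led by CR14117 (149.7). No summit of either kind lay at the 99 rRNA genes, which form only 4 clusters.

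A few long genes held many sub-threshold summits. The growth regulator gene bun (2L, 12455540 to 12546611) held 40, against 11 IDR summits, over 91.1 kb, or 0.439 per kb. The adhesion molecule gene kirre (X, 2740384 to 3134532) also held 40, against 41, over 394 kb, or 0.101 per kb. The overlapping genes CG46467 and Glut4EF held 35 each, against 13 IDR summits each. Over all 13945 genes the bodies held 0.0864 sub-threshold and 0.0721 IDR summits per kb.

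Sequence at the sub-threshold summits was AT-rich, less so than in the IDR list. In windows of 100 bases to each side of a summit the mean G+C content was 39.2% ± 8.39 (SD over 11414 windows), against 41.7% ± 9.11 in flank windows centred 1000 bases to either side and 35.8% ± 7.45 at IDR summits. The mean difference between summit and flank was -2.50 points, -2.44 with the summits of replicate 1 and -3.09 with those of replicate 2, against -6.69 in the IDR list. From the strongest to the weakest of the 5 groups the content rose through 38.0%, 38.5%, 39.4% and 39.8% to 40.4%. On chromosome 4 it was 34.6%, near the 35.3% of all windows of that chromosome.

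The windows were searched on both strands for 21 short motifs, of which 12 were more frequent at sub-threshold summits than in flanks, 4 less frequent and 5 neither, judged by whether the interval of the difference held 0. With the summits of replicate 1 and of replicate 2 set against the same flanks, 10 of the 12, 3 of the 4 and 3 of the 5 came out the same in both. The CA repeat was then neither in both replicates, the Grainyhead site neither in replicate 1, the Zelda site neither in replicate 2, the homeodomain site higher in replicate 2 and the Myc-type E-box lower in replicate 2. For 15 of the 21 the share lay between those of the flanks and of the IDR list. TATCGATA, the DNA replication-related element bound by Dref, was in 2.15% of windows, against 0.491% of flanks, 3.80% of IDR windows, 6.45% of windows at coding starts and 0.564% of all windows of the arms. It was in 6.82% of the sub-threshold windows at promoters and 0.574% of those away from them, the latter close to the share of all windows, and in 8.30% and 0.552% of IDR windows. It contains CGATA, the core bound by BEAF-32, which was in 25.6%, against 22.1% of flanks. Motif 1, GGTCACAC, a core promoter element, was in 1.83% and 0.508%, and in 2.58% of IDR windows. At promoters it was in 6.33% (5.50 to 7.28) of sub-threshold and 5.51% (4.88 to 6.20) of IDR windows, and away from them in 0.316% and 0.473%. The core promoter element Ohler motif 7 (CATCNCTA) was in 1.498% of windows, against 1.14% of flanks, 3.83% of IDR windows and 1.31% of all windows of the arms. At promoters it was in 2.75% (2.21 to 3.41) of sub-threshold windows, below the 4.46% of windows at coding starts and the 7.14% of IDR promoter windows. Away from promoters it was in 1.08% of sub-threshold and 1.44% of IDR windows.

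The largest differences in points were those of the motifs shown above. TATAAA was in 29.0% of windows, against 22.99% of flanks (difference 5.99, interval 5.0 to 6.99) and 35.6% of IDR windows. The A tract was in 24.8% and 19.0% (5.81, 4.87 to 6.75), and 27.3% of IDR windows. GCCAT, the core bound by the Polycomb group protein Pleiohomeotic, was in 29.2% and 34.7% (-5.49, -6.53 to -4.45), and 24.6% of IDR windows. The share of all windows of the arms was 21.8% for TATAAA, 16.3% for the A tract and 35.4% for GCCAT. With the summits of replicates 1 and 2 the shares were 28.9% and 30.6% for TATAAA, 24.7% and 25.2% for the A tract, and 29.6% and 28.8% for GCCAT. These letters follow base composition, which differed between summits and flanks as given above, and the part of composition was not tested.

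Of the motifs of single factors, the GAGA repeat GAGAGA was in 10.2% of windows and 8.03% of flanks, close to the 10.7% of IDR windows. The GATA site TGATAA was in 16.2% and 13.5%, and 17.0% of IDR windows. The CA repeat CACACA, at 17.4%, was above both its flanks (16.3%) and the IDR list (14.6%), and so was the AP-1 site TGANTCA at 5.67% (flanks 4.79%, IDR list 4.88%). The homeodomain site TAATTA was at 13.8% close to its flanks (13.5%), whereas IDR windows had 17.2%. The initiator core TCAGTT was at 14.2% and 13.0%, and the Grainyhead site AACNGGTT at 2.99% and 2.56%. At promoters the initiator core was in 16.5% of sub-threshold windows, below the 21.9% of windows at coding starts, and away from promoters in 13.4%. Lower than in flanks were also the nuclear receptor half-site AGGTCA (3.81% and 4.89%), the Scalloped site GGAATG (8.11% and 9.36%) and the Zelda site CAGGTAG (0.902% and 1.18%). Neither higher nor lower, beside the homeodomain site, were the Pangolin site CTTTGAA (4.21% and 3.95%), the STAT site TTCNNNGAA (5.90% and 5.98%), the myogenic-type E-box CAGCTG (8.20% and 8.72%) and the Myc-type E-box CACGTG (2.11% and 2.44%). The part of base composition in the differences of these motifs between summits and flanks was not tested either. No motif at all was found in 793 windows (6.95%).

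**Figure D5:**
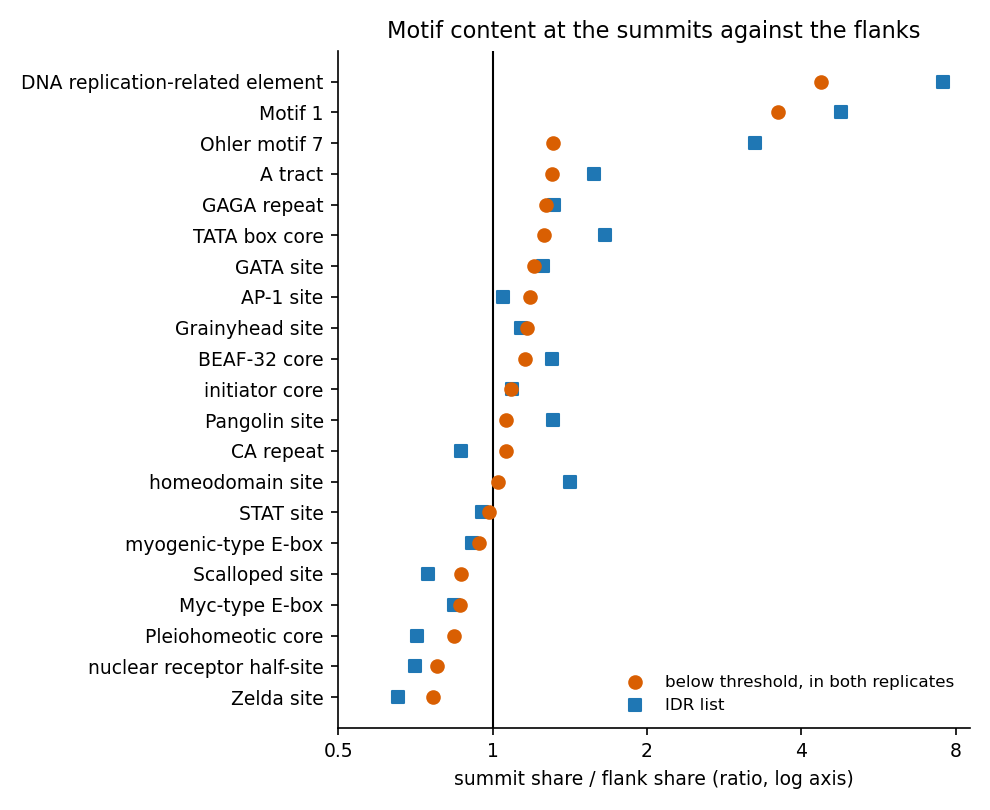
Ratio of the share of summit windows with each of 21 motifs to the share of flank windows (horizontal axis, log scale) for sub-threshold regions (circles) and the IDR list (squares); the line marks equal shares. The DNA replication-related element and Motif 1 have the highest ratios in both, and most circles lie between the line and the square of the same motif.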

How the data were processed

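ChIP-seq peak lists of 2 biological replicates of 1 group were analysed. The authors listed peaks in each replicate and in both pooled, each time against a control, and took the IDR list from these, per the deposited descriptions of the files. The caller is not given in the sources used here, nor is the threshold. The deposited values used were the signal (scale not stated), the −log10 q-value and the summit offset in bases. No read counts are given, so depth is unknown. The members and all lists, motifs and naming rules were chosen with earlier results of these data known.

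Overlap meant at least 1 base, and a region's replicate value was that of the strongest overlapping region in that replicate's list. Coordinates are 1-based on dm6, gene models are those of Ensembl release 115 (assembly BDGP6.54), and bases those of RefSeq Release 6. A summit that fell in several classes was given 1, in the order promoter, UTR at the 5′ end, coding exon, UTR at the 3′ end, any other exon, intron, intergenic; transposable elements were left out of gene classes. Motif windows were 100 bases on each side of the summit. Genes named were esn and the planar polarity lists, up to 3 per gene list with the strongest sub-threshold region alone at a start, 3 per non-coding class, the 5 with most summits in their body, the 10 regions with the best worse rank of the replicates and the 5 strongest regions at and away from promoters. Overlap, classes and the Wilson interval were tested on simulated data, and the Newcombe, Poisson and median intervals were not. Python 3.11.15, numpy 2.4.6, pandas 2.3.3, scipy 1.17.1, statsmodels 0.14.6 and matplotlib 3.10.9 were used.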

Additional observations from a re-analysis of the deposited data

How the results depend on the processing

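Alternatives were run for 9 results: the number of sub-threshold regions, the promoter and coding shares, the promoter difference, the G+C difference, TATCGATA, genes with a summit, the density on chromosome 4 and the summit distance. Neither difference changed its sign. The upstream share, gene lists, non-coding genes, distance to the IDR list and other motifs had no alternative beyond what the report gives. The number of sub-threshold regions stayed between 8940 (runs of overlapping regions) and 14618 (replicate 1 alone required), and was 11516 on dm3. Leaving out a replicate gave a promoter share of 22.9% to 24.6%, a difference from the IDR list of -18.9 to -17.5 points, a coding share of 1.99% to 3.28%, a G+C difference of -3.19 to -2.10 points, TATCGATA in 1.85% to 1.91% of windows, a summit at the start of 18.2% to 19.0% of genes and 134 to 149.8 regions per Mb on chromosome 4. In the 5707 stronger regions alone, the same values were 30.2%, -11.7, 0.824%, -3.34, 3.08%, 12.4% and 43.8 per Mb, and the replicate summits lay 52 bases apart. With overlap of at least 0.5 of the region they were 26.3% at promoters, -15.6, 18.1% of genes, 102 per Mb and 54 bases. With weaker regions that overlap the IDR list kept, they were 29.1%, -12.8, 1.76% coding, 26.3% of genes and 59 bases. With runs counted once, the promoter share was 24.0%, the difference -16.9 points, the share of genes 16.4%, the summit distance 64 bases and chromosome 4 stood at 87.5 per Mb. At 250 and 1000 bases from a start the promoter share was 18.9% and 34.7%, the difference -15.2 and -15.3, and the share of genes 13.7% and 22.3%. Within 50 bases of the summit TATCGATA was in 1.42% of windows. Added after seeing the data, leaving out the 119 regions with a replicate region that overlaps the IDR list gave a difference of -16.9 and 16.5% of genes, and taking the replicate summit nearest the pooled one a distance of 64 bases. The higher density on chromosome 4 was thus not seen in the stronger regions, which had 42.6 per Mb over all arms, more on X and 3L. No paired analysis was possible because there is only 1 group. Depth and the controls set limits that these lists cannot measure.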
